A study of Rattus norvegicus with 6 samples.

Results

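The genes described here carry the first steps of signalling from the T cell receptor: the kinases Lck, Fyn, Zap70 and Txk, the adaptors Lat, Lcp2, Sh2d1a and Sh2d2a, and the phosphatase Ptpn22. They are 9 genes of 31193 transcripts tested in RNA of rat renal cortex (male, Sprague-Dawley). Members were chosen as kinases and adaptors downstream of the receptor, with earlier results of these data known, so their counts are descriptions and not independent evidence. Each is represented by the probe of the highest mean log2 processed signal over the 6 arrays, among probes whose accession maps to the gene symbol. That measure chose the probe only.

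Per the labels, 3 rats received corn oil and 3 received carbon tetrachloride at 100 mg/kg/day, both for 4 weeks. The rats were 5 weeks old at purchase, and no genetic modification is named for either group. Carbon tetrachloride is a chlorinated solvent that cytochrome P450 enzymes convert to radicals. Benzyl acetate stands as the treatment in the series' design text; the title and every sample label say carbon tetrachloride, and the groups are called by the labels. Each rat gave 1 single-colour Agilent array, and the number of arrays limits the precision.

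When a T cell receptor binds its ligand, Lck phosphorylates the CD3 and zeta chains, and Zap70 docks on them and is activated in turn. Zap70 then phosphorylates the adaptors Lat and Lcp2 (SLP-76), which gather the enzymes that raise calcium and switch on Ras. Kidneys hold resident and recirculating T cells among their far more numerous epithelial cells. Some of these genes, such as Fyn and Lcp2, are also expressed by other cell types.

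The scanner software flagged between 68.5% and 72.1% of non-control probes per array as well above background. The labelled tissue matched its markers: all 10 renal cortex genes checked, among them Lrp2, Umod and Nphs1, were measured, with a median log2 change of 0.05. Slide 1 held all 3 control arrays, in its array row 1, and treated replicates 1 and 2, in row 2. Row and treatment therefore cannot be told apart within that slide. Carbon tetrachloride replicate 3 lay alone on slide 2, which was scanned separately.

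The promoter windows of Lck, Zap70 and Lat are shown because these 3 genes form the core relay and were lower together on the treated arrays. The window of Fyn, a kinase of the same family as Lck, is shown for contrast, since its values overlapped between the groups. Each window is from RefSeq on GRCr8 and runs from 250 bases before to 50 bases after an annotated start, 5′ to 3′. Capitals mark GGAAG, the core of sites of ETS factors, and TGTGGT, the core of sites of RUNX factors, on either strand (CTTCC and ACCACA on the other). The windows lie at chr5:147201218-147201517 and chr5:147183601-147183900 (minus strand) for the annotated starts of Lck, chr9:46485355-46485654 (plus strand) for Zap70, chr1:190372087-190372386 (minus strand) for Lat and chr20:44322414-44322713 (plus strand) for Fyn.
Lck, upstream start: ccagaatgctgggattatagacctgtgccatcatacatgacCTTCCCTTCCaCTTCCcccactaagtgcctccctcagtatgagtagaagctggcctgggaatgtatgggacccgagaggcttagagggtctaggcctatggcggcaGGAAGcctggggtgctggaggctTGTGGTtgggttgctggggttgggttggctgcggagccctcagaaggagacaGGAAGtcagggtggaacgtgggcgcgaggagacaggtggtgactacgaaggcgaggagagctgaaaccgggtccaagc
Lck, downstream start: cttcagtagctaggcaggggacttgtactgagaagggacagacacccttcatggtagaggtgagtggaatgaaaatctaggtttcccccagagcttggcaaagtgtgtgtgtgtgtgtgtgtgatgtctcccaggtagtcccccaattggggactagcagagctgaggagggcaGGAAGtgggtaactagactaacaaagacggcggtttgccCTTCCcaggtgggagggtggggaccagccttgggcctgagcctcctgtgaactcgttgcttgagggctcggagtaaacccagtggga
Zap70: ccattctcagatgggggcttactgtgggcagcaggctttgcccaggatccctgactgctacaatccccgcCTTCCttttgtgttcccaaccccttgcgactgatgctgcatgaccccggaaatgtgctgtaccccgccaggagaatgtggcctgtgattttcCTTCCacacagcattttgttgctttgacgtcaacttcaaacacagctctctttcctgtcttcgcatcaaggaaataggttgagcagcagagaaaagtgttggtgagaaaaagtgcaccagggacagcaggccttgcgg
Lat: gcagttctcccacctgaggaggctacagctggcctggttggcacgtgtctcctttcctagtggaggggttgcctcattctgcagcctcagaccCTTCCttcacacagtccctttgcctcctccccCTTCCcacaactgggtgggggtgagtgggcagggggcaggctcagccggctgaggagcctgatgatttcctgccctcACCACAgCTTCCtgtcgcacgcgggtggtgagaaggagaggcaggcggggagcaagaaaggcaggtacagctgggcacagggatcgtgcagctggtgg
Fyn: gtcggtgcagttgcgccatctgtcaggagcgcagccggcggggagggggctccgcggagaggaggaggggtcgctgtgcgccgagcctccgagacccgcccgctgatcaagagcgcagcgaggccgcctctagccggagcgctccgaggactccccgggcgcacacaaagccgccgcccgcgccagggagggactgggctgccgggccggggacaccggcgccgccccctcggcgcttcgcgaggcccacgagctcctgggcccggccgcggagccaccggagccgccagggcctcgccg

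The table held windows for 8 of the 9 genes, 9 windows in all. GGAAG was found in 7 of the 9 windows, against 70.1% of the 33469 windows in the table. TGTGGT was found in 4 of the 9, those of the upstream Lck start, Lat, Sh2d1a and Ptpn22, against 17.3% of all. The upstream Lck window held 5 matches of GGAAG and 1 of TGTGGT, and the downstream one 2 and 0. Zap70 had 2 of GGAAG, and Lat had 3 of GGAAG and 1 of TGTGGT, and 1 match of each lay within the last 50 bases before the start, without overlap. Fyn had no match to either and a GC content of 78.0%, where the median window had 51.7%. Txk and Ptpn22, whose values also overlapped between the groups, had 2 and 1 of GGAAG, and Ptpn22 had 3 of TGTGGT. Sh2d1a had 0 of GGAAG and Sh2d2a 0 of TGTGGT, though their groups did not overlap. The matches thus did not sort the genes by overlap. A match describes letters only and shows no bound factor.

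The comparison asks whether these transcripts differ in the renal cortex after carbon tetrachloride. Of the 9 genes 5 had lower values on every treated array than on every control array: Lck, Zap70, Lat, Sh2d1a and Sh2d2a. Their log2 changes, treated minus control, ran from -0.33 to -0.65. The other 4, Fyn, Txk, Lcp2 and Ptpn22, had overlapping groups. Over all transcripts, the groups did not overlap in the lower direction for 5.30% and in the higher direction for 7.51%, a pattern called separate below.

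No member passed an adjusted p of 0.05 in limma, with Benjamini-Hochberg adjustment over all transcripts, where 0.00321% of transcripts (1 of 31193) passed and 0 were lower. With p under 0.05 before adjustment, limma gave 5 members lower and 0 higher, against 2.64% and 3.64% of all transcripts. The median log2 change of the 9 was -0.33, against 0.0073 over all transcripts, and 6 of the 9 were below 0, against 47.8% of all. Without carbon tetrachloride replicate 3, and so within slide 1, the median was -0.48 and 7 of the 9 were below 0. All 9 chosen probes were well above background on all 6 arrays, so none entered through 1 group only. In RNA of whole cortex, fewer T cells and less of a transcript per T cell cannot be told apart.

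**Figure D1:**
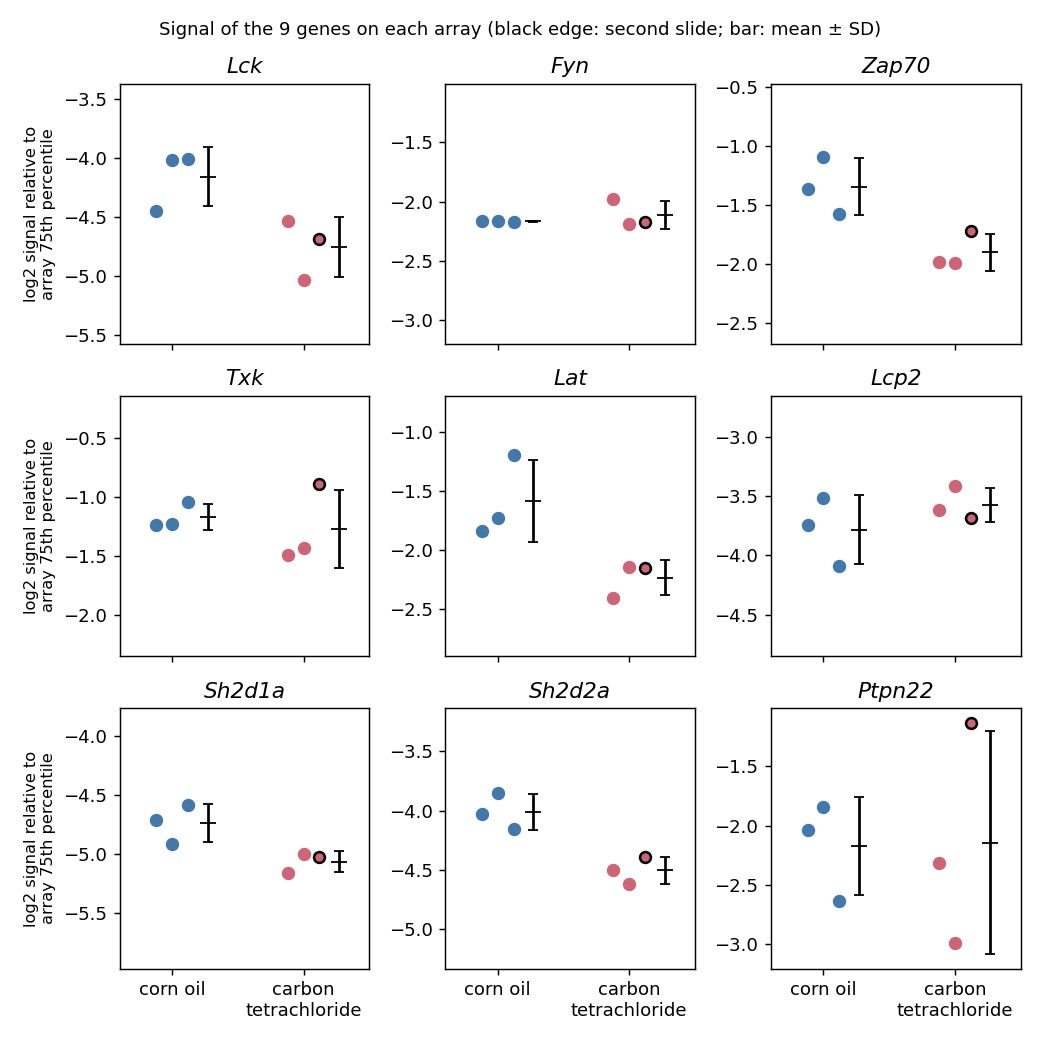
Log2 processed signal relative to the 75th percentile of its array (vertical axis, the same span in each panel) for the 9 genes, with 1 point per rat, blue for corn oil and red for carbon tetrachloride, and with bars for the mean ± SD of 3 arrays. A black edge marks the treated array on the second slide. The red points lie below all blue points for Lck, Zap70, Lat, Sh2d1a and Sh2d2a, and Ptpn22 has the widest treated spread.

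Among the kinases, Lck, which starts the cascade and binds the CD4 and CD8 co-receptors, had log2 values of -4.45, -4.02 and -4.01 in corn oil replicates 1 to 3, relative to the 75th percentile of each array. On the treated arrays it had -4.54, -5.04 and -4.69. All treated values lay below the controls, but the gap between corn oil replicate 1 and carbon tetrachloride replicate 1 was only 0.086. The log2 change was -0.59 ± 0.18 (SE, n = 3 per group), or 1.51-fold lower, with a limma adjusted p of 0.770. With quantile normalization the groups of Lck overlapped.

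Zap70, the kinase that binds the phosphorylated receptor chains, had -1.36, -1.09 and -1.58 in corn oil and -1.98, -1.99 and -1.72 after carbon tetrachloride. The groups did not overlap, and replicates 1 and 2 of the treated group were the lowest. Its log2 change was -0.55 ± 0.15 (SE, n = 3 per group), or 1.47-fold lower, with a limma adjusted p of 0.754. Within slide 1 it was -0.64, and that of Lck was -0.63.

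Fyn, a Src family kinase that T cells share with many other cell types, had -2.17 on each of the 3 control arrays and -1.98, -2.19 and -2.17 on the treated arrays. The control arrays were within 0.0032 of each other, and carbon tetrachloride replicate 1 was the 1 array that stood above them. The log2 change was 0.06, with a 95% interval from -0.14 to 0.25 and a limma adjusted p of 0.907. That interval does not hold the point estimate of Lck or Zap70, but the difference between genes was not tested. Txk, a Tec family kinase of T and NK cells, had -1.23, -1.23 and -1.04 in corn oil and -1.49, -1.43 and -0.89 after carbon tetrachloride. Treated replicates 1 and 2 lay below all controls and replicate 3, on slide 2, above them. The log2 change was -0.10 (95% interval -0.53 to 0.33) over all arrays and -0.29 within slide 1.

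Among the adaptors, Lat, the membrane scaffold that Zap70 phosphorylates, had -1.83, -1.73 and -1.19 in corn oil and -2.40, -2.14 and -2.15 after carbon tetrachloride. Of the 9 genes it had the lowest log2 change, -0.65 ± 0.19 (SE, n = 3 per group), or 1.57-fold lower, with a limma adjusted p of 0.757. Its groups were the farthest apart, with 0.30 between the nearest control and treated values. Corn oil replicate 3 stood above the other controls, and without it the change was -0.45.

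Sh2d2a, which encodes TSAd, an SH2 adaptor that binds Lck, had -4.03, -3.85 and -4.16 in corn oil and -4.50, -4.62 and -4.39 after carbon tetrachloride. The nearest control and treated values were 0.24 apart, within a range of 0.30 in corn oil and 0.23 after carbon tetrachloride. It had the smallest p of the 9, with a log2 change of -0.49 ± 0.11 (SE, n = 3 per group) and a limma adjusted p of 0.687. Of the transcripts tested, 0.548% had a smaller p.

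Sh2d1a, which encodes SAP, the adaptor that links SLAM family receptors to Fyn, had -4.71, -4.91 and -4.58 in corn oil and -5.16, -5.00 and -5.03 after carbon tetrachloride. The groups were separate by 0.089. Its log2 change was -0.33 ± 0.11 (SE, n = 3 per group), or 1.25-fold lower, with a limma adjusted p of 0.770. The lowest signal flagged as well above background on these arrays ran from -6.16 to -5.71. Of the SLAM receptors, 4 of 9 were tested, none was separate between the groups, and the lowest p was that of Ly9 at -0.78 ± 0.54, or -0.15 without carbon tetrachloride replicate 2, its lowest array.

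Lcp2, the SLP-76 scaffold, which myeloid cells and platelets also express, had -3.74, -3.52 and -4.09 in corn oil and -3.62, -3.41 and -3.69 after carbon tetrachloride. Corn oil replicate 3 was the lowest array, and the other arrays were mixed. The log2 change was 0.21 (95% interval -0.19 to 0.61), with a limma adjusted p of 0.844. Without corn oil replicate 3 it was 0.056.

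Ptpn22, a phosphatase that dephosphorylates Lck and Zap70 and so restrains the cascade, had -2.04, -1.84 and -2.64 in corn oil and -2.32, -2.99 and -1.13 after carbon tetrachloride. The treated group held both the lowest and the highest array, 1.86 apart, with replicate 3 on slide 2 the highest. The log2 change was 0.03 ± 0.49 (SE, n = 3 per group), and within slide 1 it was -0.48. The 95% interval, from -1.18 to 1.23, is the widest of the 9 and leaves changes of more than 1 log2 unit in either direction within it.

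Another background correction moved the changes of 5 of the 9 genes by over 1.5 times. It was normexp on the median spot and local background signals, with an offset of 50 added to the corrected signal. An added offset draws the log2 changes of dim probes toward 0, and its part was not tested apart from the correction. The log2 change then was -0.22 for Lck, -0.14 for Sh2d2a and -0.079 for Sh2d1a, and the groups of Sh2d1a overlapped. For Txk it was -0.012 and for Fyn 0.090. For Lat and Zap70 it was -0.52 and -0.43. The groups of Lcp2, at 0.20, became separate in the higher direction. Those of Lck almost met, with corn oil replicate 1 at -3.28 and carbon tetrachloride replicate 1 at -3.29. So did those of Sh2d2a, with corn oil replicate 3 at -3.294 and carbon tetrachloride replicate 3 at -3.299. With normexp, limma gave 3 of the 9 genes a p under 0.05 before adjustment, against 5 in the main setting. Lck, Zap70, Lat, Sh2d1a and Sh2d2a kept their direction under every setting tried, and 0 of the 9 genes passed the adjusted threshold under any. Most of that constancy was fixed in advance. As the groups of these 5 did not overlap, leaving out an array or blocking by slide could not turn their sign. With 1 probe each, the probe rules, filters, variance models and replicate block returned the same change.

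**Figure D2:**
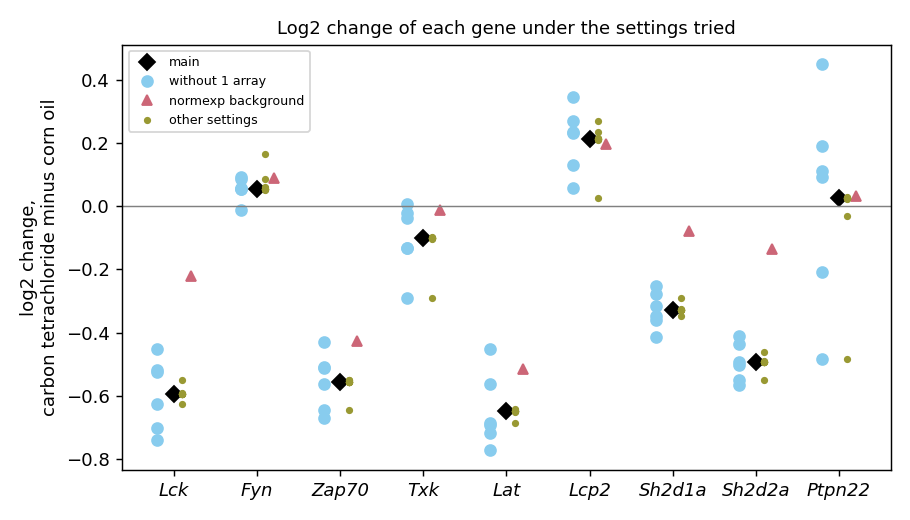
Log2 change, carbon tetrachloride minus corn oil (vertical axis), of each gene under the main setting (black diamonds), without 1 array (light blue circles), with normexp background correction (red triangles) and under the other settings (olive dots). Lck, Zap70, Lat, Sh2d1a and Sh2d2a stay below 0 throughout, which leaving out 1 array could not alter, as their groups did not overlap. Among these genes the triangles of Lck, Sh2d1a and Sh2d2a lie nearest to 0, and Ptpn22 spreads from -0.48 to 0.45.

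The 5 genes whose groups did not overlap were each read by 1 probe, so their values have no second probe to set beside them. The other 4 had 2 probes each. Both probes of Ptpn22 followed the same course over the arrays, with carbon tetrachloride replicate 3 the highest and replicate 2 the lowest on each, and gave log2 changes of 0.03 and -0.089. The other probe of Fyn had 0.27 ± 0.20 (SE, n = 3 per group), of the same direction as the chosen one.

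For Lcp2 the probes differed in direction, at 0.21 and -0.16, neither past the threshold. For Txk the second probe was not well above background on any of the 6 arrays, while the chosen probe was on all of them. The level of Txk therefore rests on 1 of 2 probes that name the same accession.

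**Figure D3:**
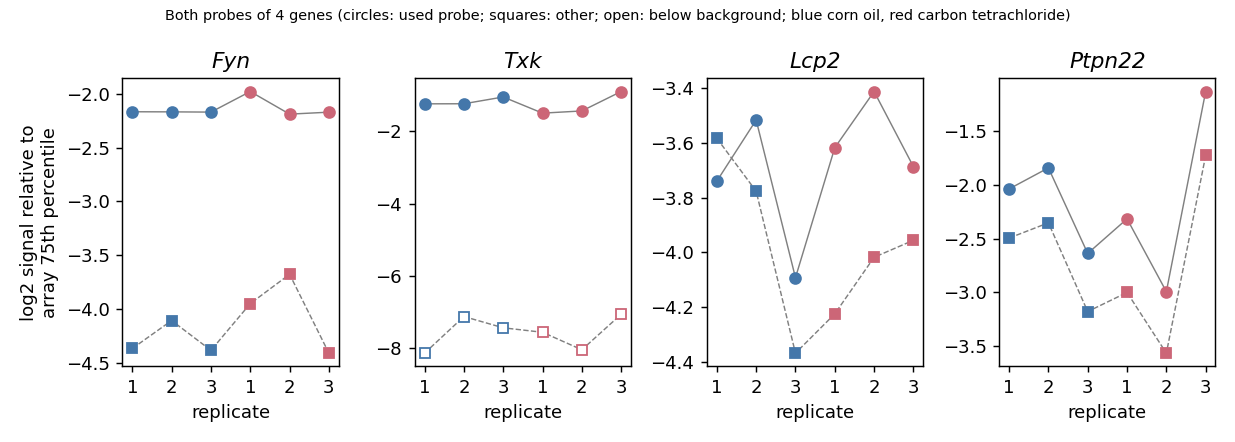
Log2 signal relative to the 75th percentile of the array (vertical axis) for both probes of Fyn, Txk, Lcp2 and Ptpn22 on each array, with corn oil replicates in blue and carbon tetrachloride replicates in red, circles for the chosen probe, squares for the other, and lines joining the values of 1 probe. Open squares mark the Txk probe that was not above background, and the lines of Ptpn22 run in parallel.

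How alike the members were over the 6 arrays was measured as the root mean square difference of their log2 values, each centred on its own mean. The closest pair was Zap70 and Sh2d2a, at 0.076, followed by Lck and Sh2d2a at 0.20. Lat and Ptpn22 were the farthest apart, at 0.77. These values include the difference between the groups and describe these arrays only.

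Relative to the centred mean profile of the 9 members, the transcripts of smallest difference were P2ry14, a receptor for UDP-glucose, at 0.030, the kallikrein gene Klk1c2 at 0.046, Rdh13, of the retinol dehydrogenase family, at 0.052, Prorsd1 at 0.054 and Pola1, the catalytic subunit of DNA polymerase alpha, at 0.056. Their log2 changes ran from -0.20 to -0.31, and none passed the threshold. Klk1c2 belongs to a family of near-identical rat kallikreins, which 1 probe may not separate. None of the 5 is on the lists of T cell receptor genes used here.

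Genes of the receptor itself were lower on the same arrays. Of 13 genes of the receptor complex, co-receptors and other surface receptors of T cells, 12 were tested. All 12 had a log2 change below 0, 8 were separate in the lower direction and 0 passed the adjusted threshold. The median was -0.74, and -0.79 within slide 1. Of the 8, Cd2, Cd3e and Cd5 entered the test through the corn oil group only, which favours a lower treated value. They were well above background on 1, 2 and 0 treated arrays. The others of the 8, Cd3d, Cd3g, Cd247, Cd8a and Cd8b, were well above background on all 6 arrays. The mean log2 level of the list ran from -2.99 to -2.73 on the control arrays and from -3.74 to -3.34 on the treated arrays. Over the 9 genes well above background on all 6 arrays, a choice made after seeing the data, it ran from -2.32 to -2.13 and from -2.86 to -2.62.

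Cd8b, which pairs with Cd8a to form the co-receptor that Lck binds, had -1.98, -2.22 and -2.16 in corn oil and -3.16, -3.06 and -3.09 after carbon tetrachloride. Cd247, the zeta chain on which Zap70 docks, had -1.82, -1.94 and -2.01 against -2.74, -2.74 and -2.66. Both sets of treated values lay well under the controls, with log2 changes of -0.98 ± 0.09 and -0.79 ± 0.08 (SE, n = 3 per group) and limma adjusted p of 0.187 and 0.213. Cd3g had -1.01 ± 0.15, and Cd5, a receptor that damps signalling, was at least 1.73-fold lower on the treated arrays, none of which measured it well above background. Cd4, the other co-receptor of Lck, had -0.11 ± 0.11 with overlapping groups, as had Cd6 at -0.11 ± 0.15. Cd28 was not tested, as it was not well above background on all arrays of either group.

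**Figure D4:**
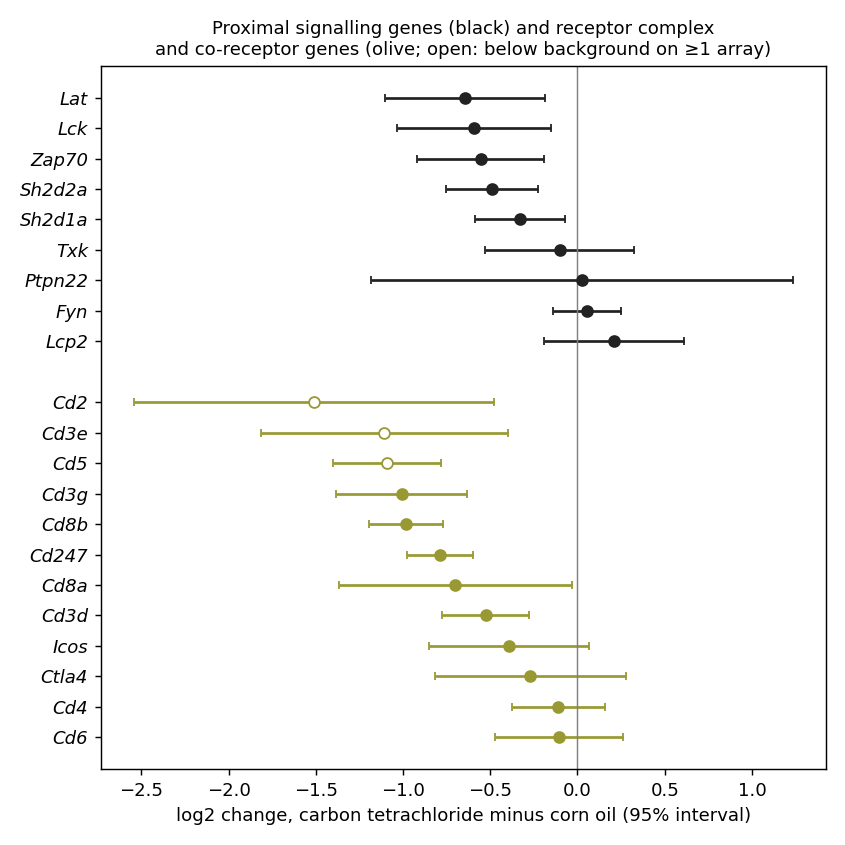
Log2 change, carbon tetrachloride minus corn oil (horizontal axis), with its 95% interval from the limma fit over 3 arrays per group. Shown are the 9 signalling genes (black) and the 12 tested genes of the receptor complex, co-receptors and other surface receptors (olive). Open circles mark genes not well above background on at least 1 array. The points of all 12 receptor genes and of 6 of the 9 signalling genes lie below 0.

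Further along the pathway, 29 other genes that carry the signal onward were listed, of which 19 had a named probe and 15 were tested. Of these 12 had a log2 change below 0, 1 was separate in the lower direction and 0 passed the adjusted threshold, and the median was -0.10 (-0.021 within slide 1). The separate gene was Fyb1, the adaptor ADAP that binds Lcp2, at -0.64 ± 0.22 (SE, n = 3 per group). Its values were -3.28, -3.63 and -3.94 in corn oil and -4.02, -4.19 and -4.58 after carbon tetrachloride, so the nearest arrays of the 2 groups almost met. Plcg1, the phospholipase C-gamma that Lat recruits, had 0.15 ± 0.08. Coro1a, an actin regulator of leukocytes, had -0.21 ± 0.13. Grb2, on the same list, had a mean log2 level of 2.47 in corn oil, against -4.16 for Lck. Which cells of the cortex gave the signal of these 15 genes was not tested.

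Genes listed as restraining the cascade showed no shared direction. Ptpn22 and Cd5, which also restrain it, were counted with the members and the receptor genes instead. Of 22 listed, 16 were tested, 8 on each side of 0, with a median of 0.013 and 0 separate between the groups. Ptprc, which encodes CD45, the phosphatase that keeps Lck primed as well as in check, had -0.27 ± 0.12 (SE, n = 3 per group). Pdcd1, the PD-1 receptor, had 0.64 ± 0.32 and was well above background on 2 of the 3 control arrays. It entered the test through the treated group only, which favours a higher treated value. Ptpn7 and Cblb had -0.28 ± 0.16 and 0.14 ± 0.09. Csk, the kinase that holds Lck and Fyn inactive, had -0.0023 ± 0.071. Its mean log2 level in corn oil was 3.50, against -4.16 for Lck. Which cells of the cortex gave the signal of the genes on this list was not tested.

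Among relatives of the kinases, 7 of the 8 Src family genes were tested, 3 below and 4 above 0, and Lck was the 1 that was separate. Fgr, of myeloid cells, had 0.27 ± 0.15 (SE, n = 3 per group), and the widely expressed Src and Yes1 had 0.016 ± 0.19 and -0.015 ± 0.11. All 5 Tec family genes were tested and none was separate, with Btk of B and myeloid cells at -0.10 ± 0.12, Bmx at 0.10 ± 0.10 and Tec at 0.030 ± 0.078. Transcription factors and trafficking receptors of T cells had 13 of 18 genes tested, 8 below and 5 above 0. Il7r had -0.26 ± 0.14, and Cxcr6 and Foxp3 had -0.71 ± 0.43 and -0.95 ± 0.62, both with overlapping groups. Without corn oil replicate 1, the highest array, Foxp3 had -0.24.

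Markers of other leukocytes are given beside these values. Of the B cell and plasma cell markers, 10 of 14 were tested, 9 were below 0 and 2 were separate in the lower direction, and the mean log2 level of the list ran from -3.25 to -2.78 in corn oil and from -3.76 to -3.35 after carbon tetrachloride. Over the 8 of these genes well above background on all 6 arrays, a choice made after seeing the data, the groups overlapped, from -2.72 to -2.22 in corn oil and from -3.02 to -2.68 after carbon tetrachloride. Tnfrsf17, a receptor of plasma cells, was at least 1.69-fold lower on the treated arrays, none of which measured it well above background. It entered the test through the corn oil group only, which favours a lower treated value. Fcrla, the other, had -1.15 ± 0.62, or -0.42 without corn oil replicate 1, which lay far above the other arrays, and Pax5 had -0.39 ± 0.20, with overlapping groups. Blk was not well above background on all arrays of either group.

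Of the NK and cytotoxic markers, 10 of 13 were tested, all 10 were below 0 and 3 were separate: Klrd1 at -0.47 ± 0.10, Ccl5 at -0.58 ± 0.14 and Nkg7 at -0.23 ± 0.07 (SE, n = 3 per group). Gzmk had -0.41 ± 0.16, while Gzma and Klrk1 had -0.0080 ± 0.35 and -0.011 ± 0.10. The median of the list was -0.22. The mean log2 level of the list overlapped between the groups, from -1.93 to -1.56 in corn oil and from -2.14 to -1.79 after carbon tetrachloride. Ncr1 and Klrc1 were not well above background on all arrays of either group.

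Macrophage and myeloid markers had 14 of 15 genes tested, 9 below and 5 above 0, none separate and a median of -0.033. Their mean log2 level ran from 0.67 to 1.06 in corn oil and from 0.77 to 1.12 after carbon tetrachloride. Aif1 had -0.25 ± 0.16, Lyz2 -0.18 ± 0.15, Mrc1 0.26 ± 0.20 and Itgam 1.06 ± 0.64, the last well above background on 2 of 3 control arrays. Itgam was highest on carbon tetrachloride replicate 1, at -3.24, against -5.20 and -5.14 on the other treated arrays. It entered the test through the treated group only, which favours a higher treated value. Cd163 was not tested. None of these markers passed the adjusted threshold, and the part of B, NK or myeloid cells in the values of the signalling genes was not tested.

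**Figure D5:**
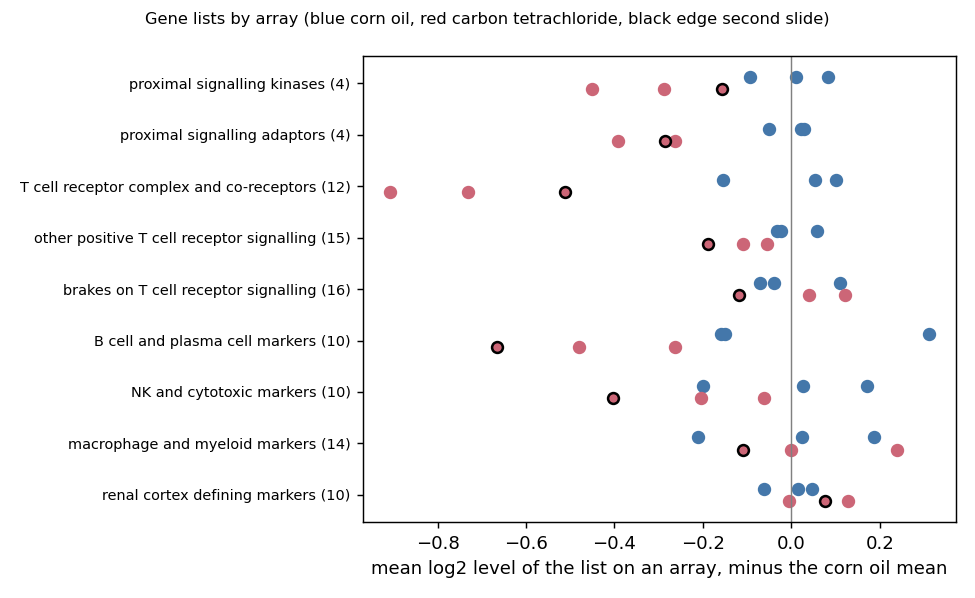
Mean log2 level of each gene list on each array minus the mean of the corn oil arrays (horizontal axis), with the number of tested genes after each name, blue for corn oil, red for carbon tetrachloride and a black edge for the treated array on slide 2. The treated arrays lie below all control arrays for the signalling kinases, the signalling adaptors, the receptor genes, the B cell markers and, by a narrow margin, the other positive signalling genes. For the B cell markers this does not hold over the 8 genes well above background on all 6 arrays, and for the myeloid markers the groups overlap.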

How the data were processed

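The scanner files hold spot intensity as deposited by the authors, extracted with Agilent Feature Extraction 10.7.1.1 per the file headers (10.7 per the submitters' processing notes), and the processed signal is a background-subtracted linear intensity. The value table, deposited by the authors, holds the same intensity divided by 1 factor per array (1015 to 1092), so its scale, centring and direction are known; column medians ran from 0.111 to 0.118. Values here are log2 of the processed signal minus the 75th percentile of each array over non-control probes, without flagged outlier spots (0 to 25 per array). A probe entered the test if every array of 1 group, or of both, flagged it as well above background. Genes were named by accession through RefSeq (GRCr8, names only): 28206 of 61537 probes (45.8%) matched. Each gene or unmatched accession was read by its tested probe of highest mean.

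The test was that of limma 3.58.1 (R 4.3.3; lmFit, eBayes, two-sided), adjusted over all 31193 transcripts. Per the series design, the rats of a group are biological replicates. The code was tested on simulated data. Members and lists were chosen with earlier results of these data known. All 9 members are named, and the 5 transcripts of most similar profile. Of each other list the 4 genes of smallest p are named, plus genes a result turns on. Cd4, Cd6, Csk, Grb2, Gzma, Klrk1 and genes below background were added after their values were seen. Some genes that this rule takes are not reported here. The planned search of protein sequences was not run. Where a probe was above background on 0 arrays of a group, the bound sets the brighter mean against, per array, the higher of the probe and the lowest signal well above background. Alternatives were other background corrections, scalings, filters, probe rules and variance models, the deposited table, the replicate number or slide as a block, and leaving out each array.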

Additional observations from a re-analysis of the deposited data

How the results depend on the processing

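The count of members past the adjusted threshold was 0 under every setting, and the 5 separate genes kept their direction in all of them. For those 5, leaving out an array or blocking by slide could not turn the sign, as their groups did not overlap. The count of transcripts past the threshold, 1 in the main setting, was 0 with normexp, with no dim-probe filter, when probes had to be above background on all 6 arrays, with robust fitting of a trend, and with either the slide as a block or the replicate block. Without single arrays it ran from 0 to 2 (2 without corn oil replicate 3; 0 without corn oil replicate 1 and without treated replicate 2 or 3). The median member change was -0.079 with normexp, -0.13 over all tested probes taken singly and -0.48 with the slide as a block, and ran from -0.48 to -0.25 without single arrays. As treated replicate 3 lay alone on slide 2, the slide block and leaving out that array give the same fit and are 1 check. Ptpn22 turned sign with the mean of its probes (-0.032), on its other probe (-0.089), with the slide as a block (-0.48) and without single arrays (-0.48 to 0.45), and Lcp2 did so on its other probe (-0.16). Without single arrays Fyn ran from -0.012 to 0.094 and Txk from -0.29 to 0.0082. The cause was not tested. Same-numbered replicates did not deviate together (correlations of deviations -0.023, -0.097 and -0.079). Such correlations cannot settle whether the numbers pair the rats, as differently numbered replicates reached 0.13. The replicate block changed no member's call. The settings that leave out list genes below background, or 1 array for Foxp3, Ly9 and Fcrla, were chosen after seeing the data. Signal over background limits Cd5 and Tnfrsf17 to a bound on the treated arrays.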
